A study of Homo sapiens with 6 samples.

Results

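The BCL2 family decides, through binding between its own proteins, whether the outer membrane of mitochondria stays intact or lets out the factors that start apoptosis. The 10 genes described here were listed with earlier results of these data known. They were taken by name, by a rule that uses no measured value. All 10 were found by symbol among the 60660 genes of the count tables. They fall into 3 roles. BCL2, BCL2L1 and MCL1 are antiapoptotic, BAX and BAK1 are the effectors that form the pore, and BBC3, PMAIP1, BCL2L11, BIK and BMF are BH3-only genes.

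The antiapoptotic proteins hold the effectors and the BH3-only proteins in check. BH3-only proteins act as sensors of stress, and each binds its own set of antiapoptotic partners or activates the effectors directly. Much of this control acts on the protein, through its turnover, location and phosphorylation, and RNA-seq does not measure it.

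The libraries were made from polyA RNA of 12Z cells, an established epithelial cell line from endometriosis, a disorder in which tissue like the lining of the uterus grows outside it. Control cells (3 libraries) received an siRNA with no intended target (non-targeting), and knockdown cells (3 libraries) with siRNA LINC01133a against the long noncoding RNA LINC01133, used at 10 nM. All cells were lysed 72 h after transfection. The comparison addresses which genes respond to loss of LINC01133, in 1 cell line and with 1 siRNA, and effects of the siRNA itself cannot be told apart from effects of the loss of its target. The study calls the libraries of a group biological replicates; the labels do not say how the cultures were separated, and the p-values measure the spread between these libraries.

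LINC01133 stood at 823 ± 12.8 normalized counts in control and 133 ± 4.68 in knockdown cells (mean ± SD, n = 3), which is 16.1% of the control level. Normalized counts are raw counts scaled to a library of average size. The depth was 27742562 to 37551194 counts on genes per library. Control replicate 2 stood apart: the chi-square per degree of freedom was 11.8 and 12.8 between it and the other control libraries, against 2.21 to 3.73 for all other pairs within a group. Of the 6 epithelial markers, 5 were above 1 CPM (counts scaled to a library total of 1000000), and EPCAM was near 0. The summed level of these 6 markers was 6178 to 6514 CPM in control and 3947 to 4132 CPM in knockdown libraries. All 8 stromal markers exceeded 1 CPM, with sums of 5081 to 5663 CPM in control and 4439 to 4682 CPM in knockdown libraries. Leukocyte markers summed to 50.1 to 56.4 CPM in control and 26.2 to 28.1 CPM in knockdown libraries. CD14 made up nearly all of this sum, while PTPRC was near 0 and CD3E was at 0. Endothelial markers summed to 49.1 to 50.2 CPM in control and 34.4 to 36.6 CPM in knockdown libraries, mostly KDR, with PECAM1 near 0. CDH5 went the other way, from 63.4 ± 4.56 normalized counts in control to 174 ± 17.8 in knockdown cells (adjusted p = 1.40e-06). The part of these marker differences in the results that follow was not tested.

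Because an siRNA can also act on transcripts that match its seed, the guide strand of LINC01133a is shown with its seed (positions 2 to 8 from the 5′ end) in capitals, followed by the places in annotated 3′ UTRs of the 10 genes that match it. Capitals in the sites mark the 7-base match AGAATGG, in the direction of the transcript.
LINC01133a guide: uCCAUUCUcagguaacuucaa
PMAIP1 site: attttaaagcaAGAATGGaagacccttga
BCL2L11 site: gattttgtgtaAGAATGGtgtttacatgc
BCL2 site: actttctaataAGAATGGattgccctttt

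The PMAIP1 window is chr18:59902980-59903008 on the plus strand (GRCh38). Its match starts at base 238 of the 1552-base 3′ UTR of the canonical transcript and continues to an 8-base match with an A after the seed match. The BCL2L11 window is chr2:111164501-111164529 on the plus strand, and its match starts at base 281 of a 4213-base 3′ UTR in the canonical transcript, without the added A. The BCL2 window is chr18:63313915-63313943 on the minus strand, an 8-base match that lies in the 3′ UTR of 1 transcript, which is not the canonical one. A 7-base match was thus present in 3 of 10 members and an 8-base match in 2 of 10. Among 12544 tested genes with an annotated 3′ UTR, 25.4% held the 7-base match and 9.43% the 8-base match. Of the genes named further below, CYCS, BIRC5, FAS and FBXW7 also hold the 8-base match, and AIFM1 holds only the 7-base match. The match is a description of the letters, and its part in any difference was not tested.

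In knockdown cells BBC3 rose 1.76-fold, and BMF fell by 40.6%, PMAIP1 by 21.0%, BCL2L1 by 13.7% and MCL1 by 10.3%. BCL2, BAX, BAK1, BCL2L11 and BIK did not pass the test. All 10 members passed the filter on low counts, and 5 of 10 had an adjusted p under 0.05 in the quasi-likelihood test of edgeR (Benjamini-Hochberg over all genes tested), against 48.3% of the 15155 genes tested. In this test 1 of 10 members was higher in knockdown cells, against 23.3% of all genes tested, and 4 of 10 were lower, against 25.0%. With a fold change over 1.5 as well, the count was 2 of 10 against 11.7%. The share of members that passed the test was thus close to that of all genes. Without control replicate 2 the same 5 passed, with log2 fold changes of -0.20 for BCL2L1, -0.17 for MCL1, 0.69 for BBC3, -0.36 for PMAIP1 and -0.79 for BMF. The libraries of the groups did not overlap for 8 of 10 members, against 57.3% of all genes. The median log2 fold change of the members was -0.06 and that of all genes tested 0.0032, and the median size of the change was 0.21 for both. In bulk RNA, fewer cells of a kind and less RNA per cell cannot be told apart.

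**Figure D1:**
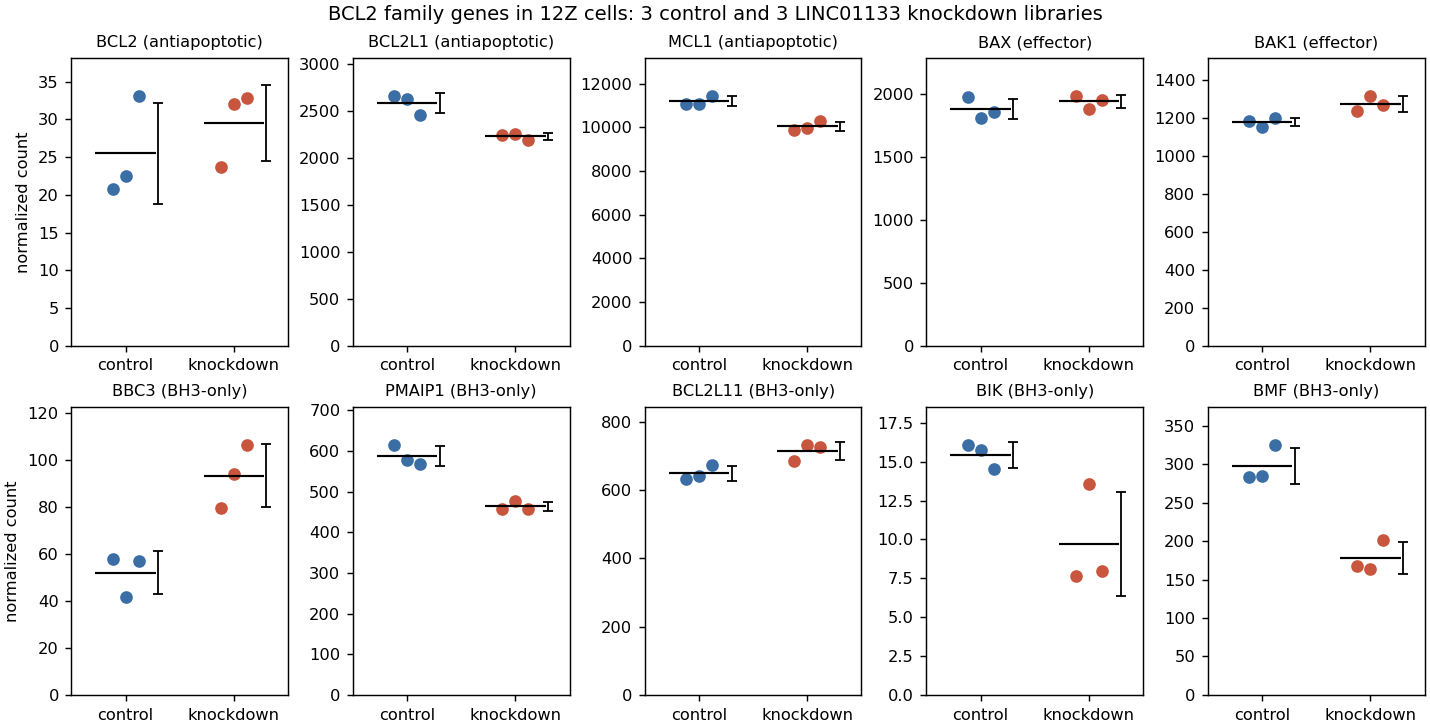
Normalized counts of the 10 members in each library (points, 3 control in blue and 3 knockdown in red), with the group mean (line) and SD (bar), on axes that start at 0. The knockdown points lie wholly above the control points for BBC3, BAK1 and BCL2L11, wholly below them for BCL2L1, MCL1, PMAIP1, BIK and BMF, and among them for BCL2 and BAX.

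The antiapoptotic genes are described first. MCL1 (chr1:150560895-150579738, minus strand) encodes a short-lived guardian protein that binds BAK1 and several BH3-only proteins. Its normalized counts were 11078, 11068 and 11456 in control and 9874, 9981 and 10282 in knockdown libraries. All knockdown libraries were below all control libraries. The log2 fold change was -0.16 ± 0.035 (SE; 95% interval -0.23 to -0.081; adjusted p = 0.00237). With scaling by library size alone in place of TMM factors, the change was smaller, at -0.09 (adjusted p = 0.0403). Of the exon bases of MCL1, 5.27% are shared with ADAMTSL4-AS1 on the same strand, which held 3 to 8 counts per library.

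BCL2L1 (chr20:31664452-31723989, minus strand) encodes BCL-XL and, by alternative splicing, a shorter proapoptotic form, and gene counts do not separate them. Its normalized counts were 2667, 2636 and 2460 in control and 2251, 2255 and 2190 in knockdown libraries. The groups did not overlap, and every knockdown library was below every control library. It fell by 0.21 ± 0.042 on the log2 scale (95% interval -0.30 to -0.12; adjusted p = 0.000914). The antisense RNA ABALON overlaps 41.3% of the exon bases of BCL2L1. In the unstranded counts BCL2L1 kept 53.8% of its stranded count, since reads on both genes are then left out, whereas ABALON itself had 0 to 4 counts per library.

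BCL2 (chr18:63123346-63320128, minus strand), the founding member of the family, was the lowest of the 10 genes per kilobase of exon, though not by count. Its raw counts were 22, 20 and 32 in control and 28, 33 and 29 in knockdown libraries. Normalized counts were 20.8, 22.5 and 33.2 in control against 23.7, 32.0 and 32.9 in knockdown libraries, and the groups overlapped. The log2 fold change was 0.20 with a 95% interval of -0.34 to 0.73 (adjusted p = 0.540). At these counts a change of the size seen in MCL1 or BCL2L1 lies within the interval and was not detectable.

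Neither effector passed the test. BAX (chr19:48954815-48961798, plus strand), whose protein moves from the cytosol into the mitochondrial membrane on activation, had 1975, 1814 and 1859 normalized counts in control and 1989, 1886 and 1953 in knockdown libraries. The groups overlapped, and the 95% interval of the log2 fold change was -0.05 to 0.14 (adjusted p = 0.429). These limits are smaller in size than the estimate for BCL2L1, -0.21, whose own interval reaches -0.12. BAK1 (chr6:33572547-33580293, minus strand) encodes the effector that resides in the membrane and is held by MCL1 and BCL-XL. Its normalized counts were 1184, 1152 and 1198 in control and 1237, 1317 and 1266 in knockdown libraries. Each knockdown library was above each control library, by a small margin. The log2 fold change of BAK1 was 0.11 ± 0.045 (unadjusted p = 0.0274; adjusted p = 0.0556 in edgeR and 0.176 in DESeq2), short of the threshold. BAK1 passed it when libraries were scaled by size alone (0.17, adjusted p = 0.00741) or when genes needed 10 counts in every library (0.11, adjusted p = 0.0457). By edgeR neither effector passed at an adjusted p, 1 of 2 passed at an unadjusted p under 0.05, and by DESeq2 neither passed.

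The BH3-only genes moved in both directions. BBC3 (chr19:47220822-47232766, minus strand) encodes PUMA, which binds all antiapoptotic members. Its raw counts were 61, 37 and 55 in control and 94, 97 and 94 in knockdown libraries, or 57.7, 41.7 and 57.0 against 79.7, 94.2 and 107 after normalization. The lowest knockdown library was above the highest control library, although the spread within groups was wide for this weakly expressed gene. BBC3 rose by 0.82 ± 0.17 on the log2 scale (95% interval 0.45 to 1.19; adjusted p = 0.00143), and the change was 0.69 to 0.93 with single libraries left out. The lowest of these values, 0.69, was the one without control replicate 2.

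BMF (chr15:40087890-40108892, minus strand) encodes a BH3-only protein known to be released from the actin motor complex when cells lose attachment. Its normalized counts were 284, 285 and 325 in control and 168, 164 and 202 in knockdown libraries. All knockdown libraries were well below all control libraries. BMF fell by 0.75 ± 0.10 on the log2 scale (95% interval -0.98 to -0.53; adjusted p = 5.32e-05), with values of -0.84 to -0.68 when single libraries were left out. Its antisense partner BMF-AS1 had 0 counts in all 6 libraries.

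PMAIP1 (chr18:59899996-59904305, plus strand) encodes NOXA, which binds MCL1 and promotes its degradation. Its normalized counts were 615, 577 and 569 in control and 458, 477 and 457 in knockdown libraries. The knockdown libraries were close together and below every control library. PMAIP1 fell by 0.34 ± 0.062 on the log2 scale (95% interval -0.47 to -0.21; adjusted p = 0.000514). This is the member with the 8-base seed match in its canonical 3′ UTR shown above. Matches also lie in BCL2, outside the canonical transcript, and in BCL2L11, without the added A. BMF, BCL2L1, MCL1, BBC3, BAX, BAK1 and BIK hold none. The part of the matches in any difference was not tested.

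BCL2L11 (chr2:111119378-111168444, plus strand) encodes BIM, a strong activator of the effectors that is controlled by FOXO factors and by ERK signalling. Its normalized counts were 632, 642 and 675 in control and 685, 733 and 726 in knockdown libraries. The groups did not overlap, with the highest control library close to the lowest knockdown library. The log2 fold change was 0.14 ± 0.056 (95% interval 0.014 to 0.26; adjusted p = 0.0617), which did not pass. It passed with scaling by library size alone (0.20, adjusted p = 0.0126) and without control replicate 3 (0.17, adjusted p = 0.0442). MIR4435-2HG, on the opposite strand, shares 10.8% of the exon bases of BCL2L11 and had 1740 to 2417 counts per library, which the stranded column keeps apart. With the unstranded column the log2 fold change was 0.12 (adjusted p = 0.150).

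BIK (chr22:43110750-43129712, plus strand) encodes a BH3-only protein of the endoplasmic reticulum. Its raw counts were 17, 14 and 14 in control and 9, 14 and 7 in knockdown libraries. Normalized counts were 16.1, 15.8 and 14.5 against 7.63, 13.6 and 7.94. The second knockdown library lay close to the control libraries and the other two at a much lower level. The log2 fold change was -0.66 with a 95% interval of -1.36 to 0.027 (adjusted p = 0.103), an interval that holds both a large drop and no change at this depth. BIK cannot be tested when 10 counts are required in every library.

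**Figure D2:**
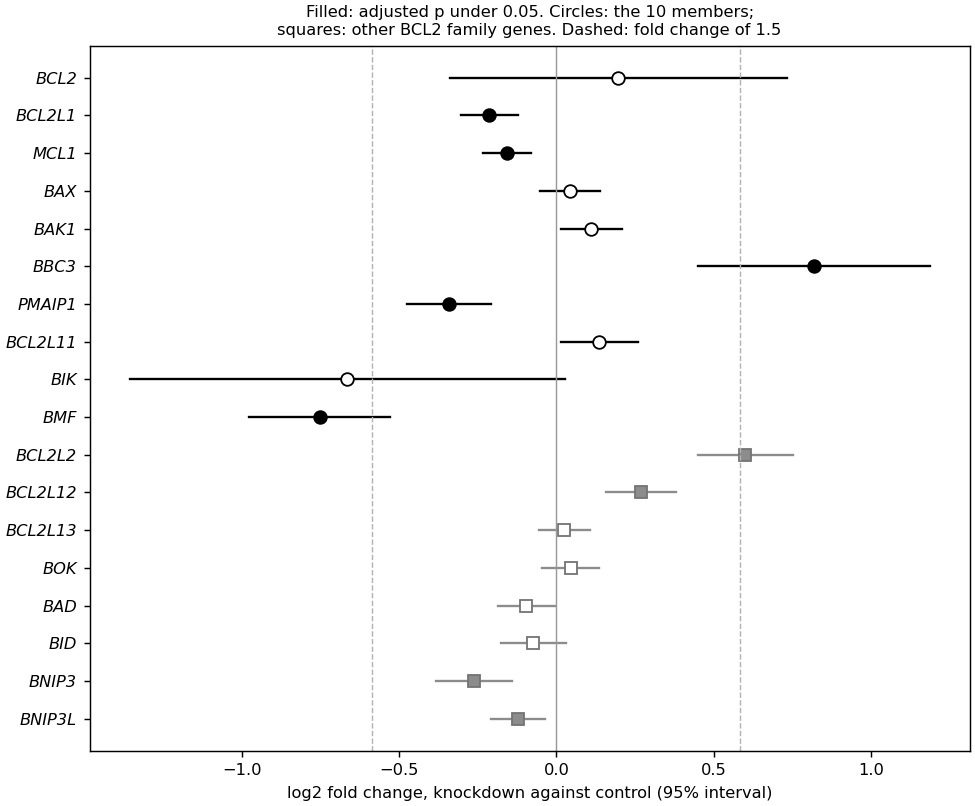
Log2 fold change (knockdown against control, x axis) with its 95% interval for the 10 members (circles) and 8 other tested BCL2 family genes (squares), filled where the adjusted p is under 0.05; dashed lines mark a fold change of 1.5. BBC3, BMF and BCL2L2 lie past the dashed lines with filled symbols, BIK lies past one with an interval that reaches 0, and the intervals of BCL2 and BIK are the widest among the members.

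Levels between genes were compared per length, as CPM per kilobase of merged exons, and are a description without a test. In control libraries MCL1 led with 55.6 ± 1.10, followed by BAX with 22.5 ± 0.992, BCL2L1 with 19.1 ± 0.820, BAK1 with 16.5 ± 0.327 and PMAIP1 with 8.30 ± 0.351. BCL2L11 followed at 2.98 ± 0.101, BMF at 1.69 ± 0.134, BBC3 at 0.506 ± 0.0880, BIK at 0.502 ± 0.0272 and BCL2 at 0.062 ± 0.016. All neighbours in this order were apart in every control library except BBC3 and BIK, which overlapped. Thus nearly all antiapoptotic RNA of these 3 genes was MCL1 and BCL2L1. PMAIP1 and BCL2L11 were the highest BH3-only genes among the 10 members. The relatives BAD (BH3-only) and BID, which are not members, were higher in control libraries, with means of 22.4 and 10.6. MCL1 alone held 43.6% of the summed level of the 10 genes in control and 41.8% in knockdown cells.

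In knockdown libraries the levels were 49.9 ± 1.05 for MCL1, 23.2 ± 0.623 for BAX, 17.8 ± 0.565 for BAK1, 16.4 ± 0.268 for BCL2L1 and 6.56 ± 0.158 for PMAIP1. BAK1 and BCL2L1 thereby changed places, with the knockdown libraries of the 2 genes apart. This exchange depends on the length used: per length of the canonical transcript, a choice made after the data were seen, BCL2L1 stayed above BAK1 in both groups. At the low end, BCL2L11 was at 3.28 ± 0.119, BMF at 1.01 ± 0.118, BBC3 at 0.907 ± 0.131, BIK at 0.316 ± 0.109 and BCL2 at 0.072 ± 0.012. BMF and BBC3, which were 3.34-fold apart in control cells, overlapped in knockdown cells. Per canonical transcript length they changed places, with means of 1.96 for BMF and 0.872 for BBC3 in control and 1.17 and 1.56 in knockdown cells, and the share of BAX in the control sum was 32.4% in place of 17.6%.

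**Figure D3:**
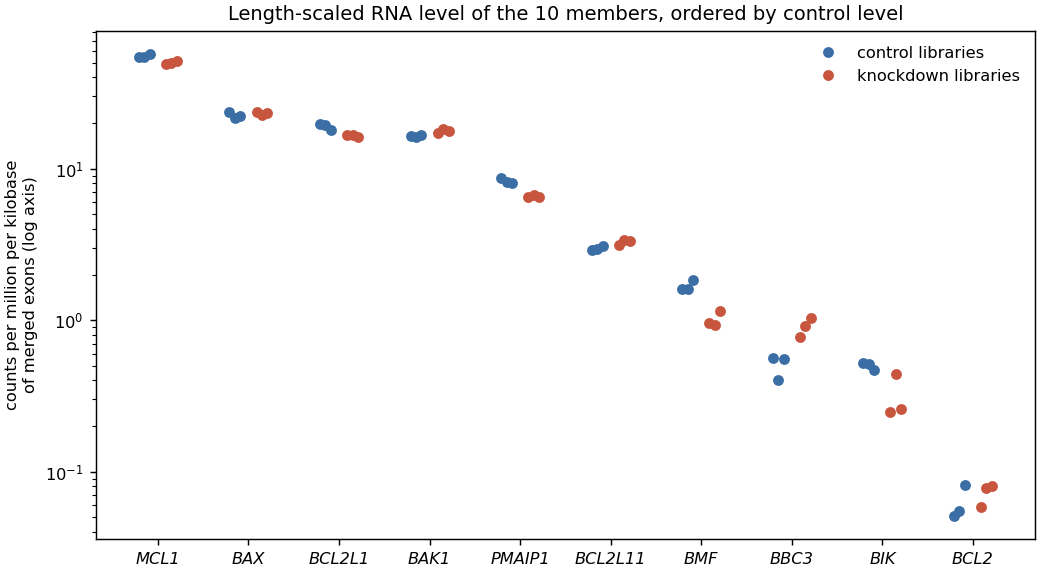
Level of each member as CPM per kilobase of merged exons (log axis) in the 3 control (blue) and 3 knockdown (red) libraries, ordered by the control mean. MCL1 is highest at 55.6 in control, BCL2 lowest at 0.062, and BMF and BBC3 come together in the knockdown libraries.

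Summed by role, the antiapoptotic level was 74.7, 74.4 and 75.1 CPM per kilobase in control and 65.7, 66.2 and 67.3 in knockdown libraries. The effector level was 40.1, 37.8 and 38.9 in control and 41.0, 40.9 and 41.0 in knockdown libraries, and the BH3-only level was 14.3, 13.6 and 14.0 against 11.6, 12.4 and 12.2. The antiapoptotic and BH3-only sums were lower, and the effector sum slightly higher, in every knockdown library than in any control library. These sums hold the 10 members only and leave out the relatives described below. Means in control and knockdown cells were 22.4 and 20.9 for BAD (BH3-only) and 10.6 and 10.0 for BID. They were 26.8 and 27.6 for BOK (BAX-like) and 4.70 and 7.16 for BCL2L2 (antiapoptotic). The antiapoptotic sum was 1.86, 1.97 and 1.93 times the effector sum in control and 1.60, 1.62 and 1.64 times in knockdown libraries. This ratio, chosen after values were seen and given without a test, was lower in knockdown cells also per canonical transcript length (means of 1.32 and 1.13) and in unstranded counts (1.83 and 1.55). The ratio of the antiapoptotic to the BH3-only sum overlapped between groups, at 5.35 ± 0.117 in control and 5.51 ± 0.160 in knockdown cells. These ratios are of RNA and do not measure cell death. By flow cytometry at 72 h, the study saw no significant difference in apoptotic cells between control and LINC01133a knockdown.

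**Figure D4:**
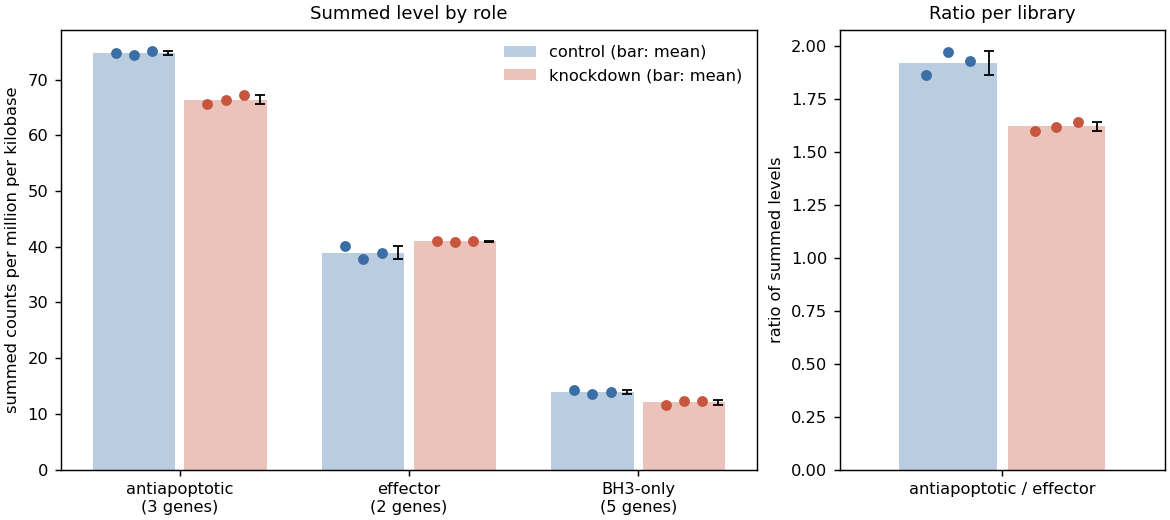
Left, summed level (CPM per kilobase) of the 3 antiapoptotic, 2 effector and 5 BH3-only genes; right, the antiapoptotic sum divided by the effector sum. Bars are means, points are the 3 libraries of each group and error bars are SD; the ratio lies between 1.86 and 1.97 in control and between 1.60 and 1.64 in knockdown libraries.

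Of 13 further BCL2 family genes, 8 were tested, of which 2 rose, 2 fell and 4 did not pass, so 4 of 8 were called, against 48.3% of all genes. BCL2L2, which encodes the antiapoptotic BCL-W, had 793, 659 and 755 normalized counts in control and 1111, 1047 and 1205 in knockdown libraries. It rose by 0.60 ± 0.071 on the log2 scale (adjusted p = 1.32e-05), opposite in direction to BCL2L1 and MCL1. The change was 0.53 without control replicate 2 and 0.55 without knockdown replicate 3, which is below a fold change of 1.5. Reads on the 16.8% of its exon bases shared with the readthrough gene BCL2L2-PABPN1 were left out by the counting. BCL2L12, a divergent relative, rose by 0.27 ± 0.052 (adjusted p = 0.00078), and 25.9% of its exon bases lie opposite IRF3. BNIP3 and BNIP3L encode receptors for removal of mitochondria. BNIP3 fell by 0.26 ± 0.055 on the log2 scale (adjusted p = 0.00154). BNIP3L fell by 0.12 ± 0.040 (adjusted p = 0.0215), which did not pass with scaling by library size alone (-0.06), nor once control replicate 3 or either of knockdown replicates 1 and 3 was removed (-0.11 in each).

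The remaining 4 relatives were tested without passing. BAD, a BH3-only gene under control of survival kinases, was at 1222 to 1247 normalized counts in control and 1152 to 1163 in knockdown libraries (log2 fold change -0.10, adjusted p = 0.0738). BID, which links death receptors to mitochondria, was at -0.07 (adjusted p = 0.223), BOK, a BAX-like gene, at 0.05 (adjusted p = 0.392) and BCL2L13 at 0.03 (adjusted p = 0.604). BOK passed with scaling by library size alone (0.11, adjusted p = 0.0499). BCL2A1 and BCL2L14 had 0 counts in all libraries, and BCL2L10, BCL2L15 and HRK had at most 10, so no difference was detectable in these.

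The genes around the family are given by list. Among 13 mitochondrial death factors, apoptosome genes and caspases, 1 rose and 4 fell, or 38.5% in all against 48.3% of all genes. CASP9, the initiator caspase of the apoptosome, rose by 0.33 ± 0.071 on the log2 scale (adjusted p = 0.00159), from 408 to 467 normalized counts in control to 532 to 587 in knockdown libraries. CYCS, which encodes cytochrome c, fell by 0.33 ± 0.037 (adjusted p = 9.53e-06), from 7605 to 7981 normalized counts in control to 6119 to 6407 in knockdown libraries. CASP6, an executioner caspase, fell by 0.29 (adjusted p = 0.000199) and AIFM1, a mitochondrial flavoprotein, by 0.28 (adjusted p = 6.87e-05).

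Of 7 inhibitor of apoptosis genes, 5 were tested, of which 1 rose and 4 fell, so all 5 were called, against 48.3% of all genes (25.0% lower). BIRC2, encoding cIAP1, rose by 0.17 (adjusted p = 0.00388). BIRC5, encoding survivin, which also acts in cell division, fell by 0.42 ± 0.037 (adjusted p = 9.18e-07), from 5697 to 5917 normalized counts in control to 4254 to 4427 in knockdown libraries. BIRC3, encoding cIAP2, fell by 0.38 (adjusted p = 0.00236). BIRC6 was at -0.37 (adjusted p = 0.0227), a value that rests on control replicate 2, since it was -0.16 (adjusted p = 0.0158) without that library, and the call was lost by DESeq2 (adjusted p = 0.157) and without knockdown replicate 2 (adjusted p = 0.101).

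In the death receptor pathway, 12 of 15 genes were tested, of which 2 rose and 5 fell, or 58.3% called against 48.3% of all genes. TNFSF10, the death ligand TRAIL, fell by 1.01 ± 0.13 on the log2 scale (adjusted p = 3.94e-05), from 583 to 787 normalized counts in control to 282 to 431 in knockdown libraries. Its receptor gene TNFRSF10A rose by 0.35 (adjusted p = 0.000721). TNFRSF1A, the main TNF receptor, fell by 0.61 ± 0.039 (adjusted p = 5.25e-08), and its adaptor TRADD rose by 0.43 (adjusted p = 0.00426). FAS was at -0.27 (adjusted p = 0.0280), but did not pass once control replicate 3 (-0.19), or knockdown replicate 1 (-0.19) or 3 (-0.27), was removed, nor with library size alone (-0.20) or by DESeq2 (-0.27).

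Among transcription factors known to act on BCL2 family genes, 14 of 15 were tested, of which 2 rose and 3 fell, or 35.7% called against 48.3% of all genes. FOXO1 fell by 0.85 ± 0.14 on the log2 scale (adjusted p = 0.000305) and FOXO3 by 0.40 ± 0.040 (adjusted p = 3.44e-06), both known activators of BCL2L11 and BBC3. HIF1A, the hypoxia factor that acts on BNIP3, fell by 0.50 (adjusted p = 2.76e-06). ATF4 rose by 0.16 (adjusted p = 0.0140), with groups that overlapped, and did not pass when control replicate 3 or knockdown replicate 1 or 2 was removed. STAT5B was at 0.10 (adjusted p = 0.0482), and did not pass by DESeq2, with the unstranded column, with no filter on low counts, or without any single library other than control replicate 2.

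Of 14 genes whose products regulate or bind the family's proteins, 7 rose and 5 fell, or 85.7% called against 48.3% of all genes (23.3% higher and 25.0% lower). TRIM17, a ubiquitin ligase for MCL1, rose by 0.86 ± 0.14 on the log2 scale (adjusted p = 0.00027), from 85.6 to 117 normalized counts in control to 158 to 202 in knockdown libraries. FBXW7, which also marks MCL1 for degradation, rose by 0.31 (adjusted p = 0.000242), and BECN1, an autophagy protein held by BCL2, by 0.24 (adjusted p = 0.000196). BTRC, a ubiquitin ligase subunit, fell by 0.71 ± 0.045 (adjusted p = 5.25e-08). VDAC2, the membrane channel that recruits BAK1, fell by 0.58 ± 0.036 (adjusted p = 3.98e-08), from 5557 to 5840 normalized counts in control to 3780 to 3797 in knockdown libraries. USP9X, which removes ubiquitin from MCL1, was at -0.22 (adjusted p = 0.0279) and at -0.09 (adjusted p = 0.0303) without control replicate 2, and its call was lost without any single knockdown library, with library size alone and by DESeq2.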

How the data were processed

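The authors deposited raw counts of read pairs per gene, 1 table per library, made with STAR 2.7.6a on GRCh38.p13 with GENCODE v36 from uniquely mapping pairs and with no normalization. The counts for the strand opposite to read 1 were used, since they held 94.0% of the stranded counts. Rows that name no gene were left out. Among them, pairs on no gene of the strand used, or on several genes, made up 8.50% to 9.44% of the uniquely mapping pairs. Pairs that lie only on a gene of the other strand are part of this share. The strand column behind the study's own test is not given in the sources used here.

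Genes were kept by filterByExpr (minimum count 10), scaled by TMM and compared in edgeR 4.0.16 under R 4.3.3 (quasi-likelihood F test, two-sided, condition as the only term, all 6 libraries), with Benjamini-Hochberg adjustment over 15155 genes. The study used DESeq2, which was run here (version 1.42.0) as an alternative. The scripts were tested on simulated data with planted changes of about the size seen in BBC3 or larger, and with the same spread for all genes. Smaller changes and changes in genes at low counts were not covered. Counts covered by overlapping genes of the same strand are left out by the counting. Symbols (60419 of 60660 IDs), positions, exon lengths and 3′ UTRs came from GENCODE v44 on GRCh38 and its companion name tables.

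Named were LINC01133, the 10 members, all other listed family genes and, per list, at most 3 genes with the highest and 3 with the lowest log2 fold change of those past an adjusted p of 0.05. Cell type markers were given as counts and ranges. The members and lists were chosen with earlier results of these data known. Alternatives covered scaling, filters on low counts, the unstranded column, DESeq2, the replicate number as a block and each library left out. A gene and a list of genes that belong with it are not reported here.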

Additional observations from a re-analysis of the deposited data

How the results depend on the processing

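Across 13 alternatives the count of members with an adjusted p under 0.05 was 5 to 7, and 2 passed both cutoffs in each. The count was 7 with library size alone, which moved the median of all genes by 0.06 (log2) and the share of calls that were higher in knockdown cells from 48.3% to 61.5% (from 45.2% to 55.9% with both cutoffs). For single members, 125 of 129 alternative fits gave the same direction and side of the threshold, and the other 4 brought BAK1 or BCL2L11 past it. Over the 33 other named genes, 401 of 429 fits were unchanged in this sense, 27 lost a call and 1 gained one. No fit reversed a direction. DESeq2 called 6140 genes, and single libraries left out gave 6103 to 7185. With the replicate number as a block (replicate block), 7251 genes and 5 members were called. Same-numbered libraries correlated at -0.015, 0.0049 and 0.057 in their deviations from the group means, and differently numbered ones at -0.066 to 0.071. These values cannot tell whether same-numbered cultures were handled together, which the labels do not say. Depth limits BCL2 and BIK, at 7 to 33 counts per library. The ratio of the antiapoptotic to the effector sum moved from 1.92 to 1.32 in control and from 1.62 to 1.13 in knockdown cells with canonical transcript length.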
